A study of Saccharomyces cerevisiae with 8 samples.

Results

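Transcripts of 10 heat shock proteins and cytosolic chaperones of the budding yeast Saccharomyces cerevisiae were followed across 4 genotypes. The genes were taken by name, with earlier results of these data known. They are the disaggregase gene HSP104, the Hsp90 genes HSP82 and HSC82, and the Hsp70 genes SSA1 and SSA4. The others are the small heat shock protein genes HSP26 and HSP42, the aggregate-sorting gene BTN2, and the J protein genes YDJ1 and SIS1. All 10 were found among the 7126 features of the deposited table, and all 10 passed the filter on low values that 6366 features passed. RNA came from a psh1 cac2 mutant (strain GH194), a psh1 mutant (GH72), a cac2 mutant (GH182) and a wild type, WT (GH69), with 2 libraries each. Each genotype was 1 strain, so a difference between genotypes is also a difference between single strains. All 4 strains overproduced the centromeric histone H3 variant Cse4: per the labels' protocols, cells kept in raffinose medium grew for 2 h at 30 °C and then for 10 h with galactose at 4%. Psh1 is a ubiquitin ligase that sends Cse4 to be degraded, and Cac2 belongs to CAF-1, a histone chaperone of replicating DNA. No heated culture and no culture without galactose is analysed here, so the values are levels during growth at 30 °C under Cse4 overproduction.

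Chaperones bind unfolded or misfolded proteins and help them to fold, to stay soluble or to be degraded. In yeast the transcription factor Hsf1 drives their genes through heat shock elements, which are alternating inverted repeats of the unit GAA, and it does so both in normal growth and, more strongly, when misfolded proteins build up. A second pair of factors, Msn2 and Msn4, acts through stress response elements on genes of general stress and slow growth, and some chaperone genes carry both kinds of element. Hsp70 proteins are called to their substrates by J proteins, Hsp90 acts later on partly folded clients, small heat shock proteins and sorting factors gather misfolded proteins, and Hsp104 pulls them out of aggregates together with Hsp70.

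Between 30767522 and 34561763 reads per library were recovered from the deposited RPKM, which are reads scaled by feature length and by the authors' library size. The deleted genes checked the labels: PSH1 had 0 to 2 reads in the psh1 cac2 and psh1 libraries, against 932 to 1128 in cac2 and WT, and CAC2 had 1 to 7 reads in psh1 cac2 and cac2, against 837 to 1155 in psh1 and WT. CSE4 itself stood at 23172 ± 529 RPKM in psh1 cac2, 9871 ± 362 in psh1, 18962 ± 1423 in cac2 and 15605 ± 1442 in WT (SD, n = 2). Each of the 10 chaperone genes had between 2921 and 84517 reads in every library. By mean RPKM over the 8 libraries they ranked from 61 (SSA1) to 935 (BTN2) of 7126 features, and together they took 0.855 ± 0.0519% of the reads in psh1 cac2, 0.789 ± 0.0689% in psh1, 0.749 ± 0.0606% in cac2 and 0.85 ± 0.0974% in WT (SD, n = 2). Both psh1 cac2 shares (0.819 and 0.892%) lay above both cac2 shares (0.706 and 0.792%), and all other pairs of genotypes overlapped.

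The regulatory sequence upstream of the genes was read from the RefSeq assembly R64, which is sacCer3, the build named in the submitters' processing notes. Within 500 bases before the start codon, the 2-unit heat shock motif TTCNNGAA or GAANNTTC was found in 10 of 10 genes, against 35.1% of 6019 promoters of protein-coding genes. The 3-unit motif TTCNNGAANNTTC or GAANNTTCNNGAA, which contains the 2-unit motif, was found in 5 of 10 (BTN2, HSP42, SIS1, HSP104 and SSA1), against 1.48% of all promoters. The stress response motif AGGGG or CCCCT was found in 6 of 10, against 34% of all promoters, and was not found in BTN2, SIS1, YDJ1 or HSC82. Both strands were searched, overlapping matches were counted, and a match is a description and not a shown binding site.

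Stretches of 140 bases are shown for the 5 genes with a 3-unit match and, for contrast, for HSP82 and HSP26, which had only 2-unit matches. They are written 5′ to 3′ on the strand of the gene, and capitals mark heat shock and stress response motifs. They lie at chrVII:772090-772229, + strand (BTN2, 364 to 225 bases before its start codon), chrIV:806358-806497, + strand (HSP42, 263 to 124 bases), chrXIV:619790-619929, - strand (SIS1, 364 to 225 bases), chrXII:88301-88440, + strand (HSP104, 322 to 183 bases), chrI:141676-141815, - strand (SSA1, 384 to 245 bases), chrXVI:98741-98880, - strand (HSP82, 255 to 116 bases) and chrII:381656-381795, + strand (HSP26, 374 to 235 bases). None of these stretches overlaps an annotated gene.
BTN2: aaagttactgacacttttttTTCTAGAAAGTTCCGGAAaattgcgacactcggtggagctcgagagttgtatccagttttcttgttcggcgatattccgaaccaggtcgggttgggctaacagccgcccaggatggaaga
HSP42: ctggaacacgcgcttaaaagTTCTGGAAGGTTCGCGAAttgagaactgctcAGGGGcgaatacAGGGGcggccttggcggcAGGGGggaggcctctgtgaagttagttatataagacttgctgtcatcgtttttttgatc
SIS1: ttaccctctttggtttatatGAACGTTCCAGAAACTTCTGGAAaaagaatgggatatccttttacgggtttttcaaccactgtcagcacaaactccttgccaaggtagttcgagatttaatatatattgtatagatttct
HSP104: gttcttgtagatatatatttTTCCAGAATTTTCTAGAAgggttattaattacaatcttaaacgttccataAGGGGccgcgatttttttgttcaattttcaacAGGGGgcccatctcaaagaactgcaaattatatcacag
SSA1: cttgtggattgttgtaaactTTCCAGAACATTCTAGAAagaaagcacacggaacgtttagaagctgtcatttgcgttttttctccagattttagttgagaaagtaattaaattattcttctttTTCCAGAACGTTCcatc
HSP82: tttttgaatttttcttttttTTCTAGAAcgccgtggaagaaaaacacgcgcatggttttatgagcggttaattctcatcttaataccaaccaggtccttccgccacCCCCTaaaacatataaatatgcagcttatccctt
HSP26: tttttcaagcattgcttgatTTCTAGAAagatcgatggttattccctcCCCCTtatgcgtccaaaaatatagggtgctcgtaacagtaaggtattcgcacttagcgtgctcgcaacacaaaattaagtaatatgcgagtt

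The first capitals of BTN2, HSP42, HSP104 and SSA1 are runs of 4 alternating TTC and GAA units, each 2 bases from the next, and those of SIS1 are a run of 5. The HSP42 and HSP104 stretches then hold AGGGG, and the BTN2 and SIS1 stretches hold none. HSP26 shows a lone 2-unit match followed by CCCCT, as does HSP82 at a wider spacing.

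**Figure D1:**
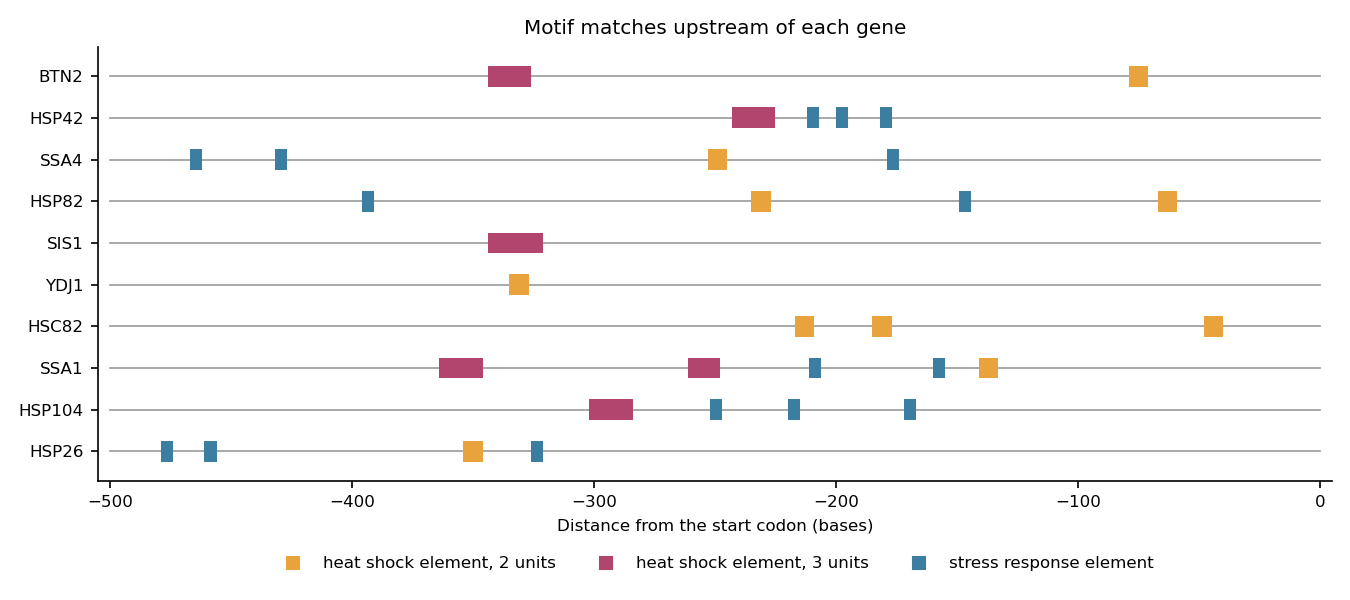
Motif matches on either strand in the 500 bases before the start codon of each gene, in bases from the start codon on the horizontal axis; orange and red blocks are 2-unit and 3-unit heat shock motifs and blue blocks are stress response motifs. Red blocks stand in 5 of 10 genes, blue blocks in 6 of 10, and BTN2 and SIS1 have red blocks but no blue ones.

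The comparison with the most calls among these genes was psh1 cac2 against psh1. Among psh1 cac2 cells, 7 of the 10 transcripts were higher and 0 were lower: BTN2, HSP42, SSA4, HSP82, SIS1, YDJ1 and HSC82. Over all features, 23.5% passed the test in this comparison and 11.2% were higher. The 10 genes had a median change of 0.32 (log2), beside -0.02 over all 6366 features. For 8 of 10 genes both psh1 cac2 libraries lay above both psh1 libraries, which held for 30.5% of features. Changes are differences of mean log2(RPKM + 1), each given with the standard error (SE) from limma, and a change passed where limma's p, adjusted by Benjamini-Hochberg over all 6366 features, was under 0.05. As p-values rest on 2 libraries of each strain, they measure the spread between such libraries, which limma pools over all genotypes.

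This count depended on scaling and on single libraries. The deposited RPKM carry a library factor beyond total reads, and with plain total reads the median over all features moved by -0.13. The median of the 10 genes was then 0.19 beside -0.14 for all features, and 3 of 10 passed (BTN2, HSP42 and SSA4), all higher. Of all 6366 features, 41.2% passed with total reads and 427 were higher. Without psh1 replicate 1 or without psh1 cac2 replicate 2 BTN2 alone passed, and without psh1 replicate 2 or without psh1 cac2 replicate 1 the same 3 genes passed as with total reads. CSE4 RNA moved in the same direction in this comparison, with 23546 and 22798 RPKM in psh1 cac2 against 10127 and 9616 RPKM in psh1 (log2 change 1.23, limma adjusted p = 9.87e-05), and its part in the chaperone changes was not tested.

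**Figure D2:**
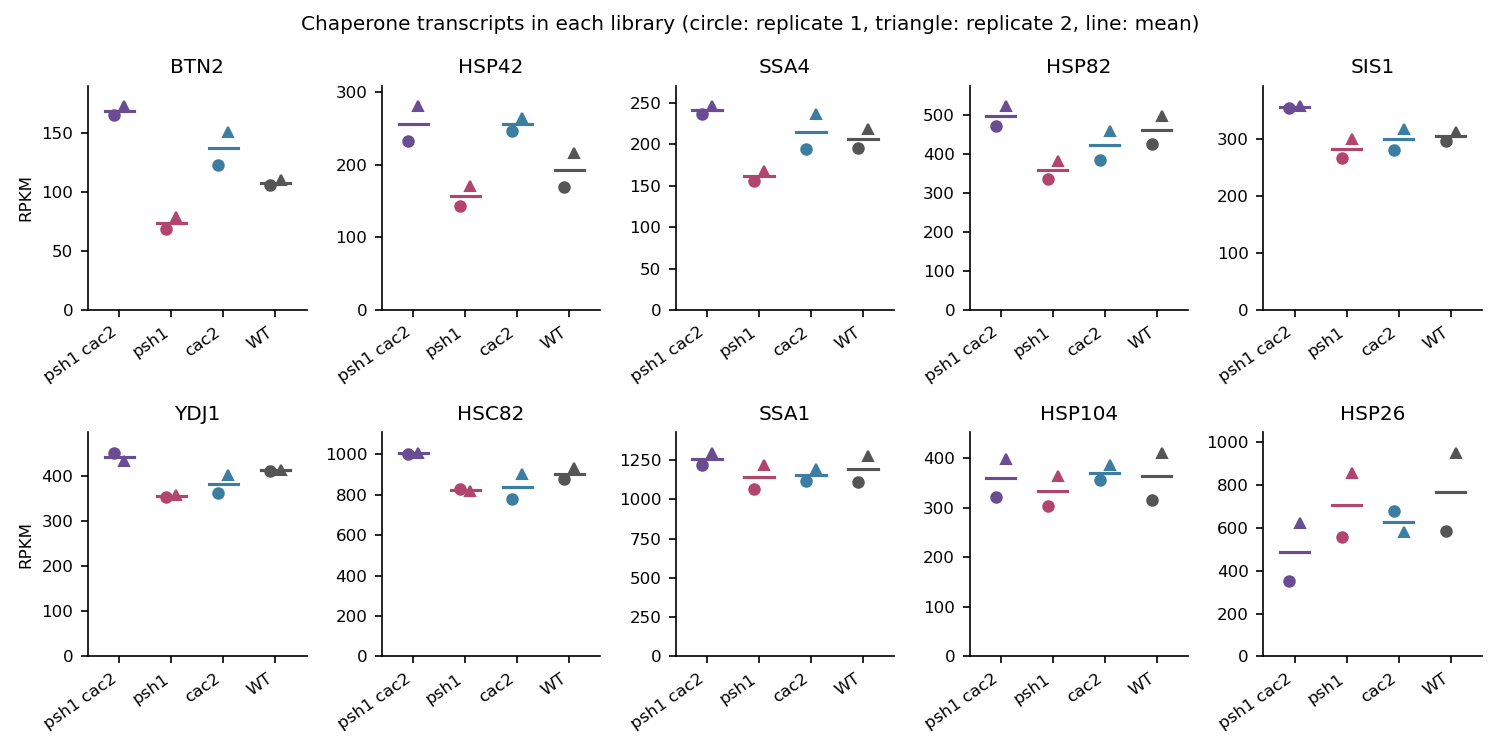
RPKM on a linear vertical axis from 0 for each gene and genotype; circles are replicate 1, triangles replicate 2 and lines the mean of 2 libraries. BTN2 stands at 165 and 173 RPKM in psh1 cac2, above all other libraries, and HSP26 spreads from 352 to 950 RPKM with overlap between all genotypes.

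Of the genes whose products gather misfolded proteins, BTN2 and HSP42 rose and HSP26 did not pass. BTN2 (YGR142W, chromosome VII, 772454 to 773686, + strand, 1 exon) encodes a protein that sorts misfolded proteins into deposits and works with Hsp42. It had 165 and 173 RPKM in psh1 cac2, 69.1 and 79.2 in psh1, 123 and 151 in cac2, and 106 and 110 in WT. The order psh1 cac2, cac2, WT, psh1 had no overlap between neighbours. Against psh1, psh1 cac2 was 2.27-fold higher (log2 change 1.18, SE 0.107, limma adjusted p = 0.000268), and this call held under every scaling, filter and left-out library tried, with changes from 1.05 to 1.28.

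HSP42 (YDR171W, chromosome IV, 806621 to 807748, + strand, 1 exon) encodes a small heat shock protein that is active in unstressed cells and builds cytosolic aggregates. It had 233 and 281 RPKM in psh1 cac2, 143 and 171 in psh1, 247 and 265 in cac2, and 169 and 216 in WT. The psh1 cac2 and cac2 libraries overlapped each other, and so did psh1 and WT, while psh1 cac2 and cac2 both lay above psh1 and WT. It rose 1.63-fold in psh1 cac2 against psh1 (log2 change 0.70, SE 0.144, limma adjusted p = 0.0129).

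HSP26 (YBR072W, chromosome II, 382030 to 382674, + strand, 1 exon), the other small heat shock protein gene, is known for strong induction by heat and in stationary phase. It had 352 and 624 RPKM in psh1 cac2, 557 and 854 in psh1, 677 and 581 in cac2, and 587 and 950 in WT. Every genotype overlapped every other, and the libraries of a genotype differed by a ratio of replicate 2 to replicate 1 of 0.858 (cac2) to 1.77 (psh1 cac2). Its change in psh1 cac2 against psh1 was -0.56 with a 95% interval from -1.30 to 0.19 (limma adjusted p = 0.245). It was the only one of the 10 genes with a negative value here.

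Of the Hsp70 genes, stress-inducible SSA4 passed the test and abundant SSA1 did not. SSA4 (YER103W, chromosome V, 364589 to 366517, + strand, 1 exon) had 236 and 246 RPKM in psh1 cac2, 156 and 168 in psh1, 195 and 236 in cac2, and 196 and 218 in WT. The psh1 libraries lay below all others, and cac2 overlapped both WT and psh1 cac2. SSA4 rose 1.49-fold in psh1 cac2 against psh1 (log2 change 0.57, SE 0.105, limma adjusted p = 0.00846).

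SSA1 (YAL005C, chromosome I, 139503 to 141431, - strand, 1 exon), a main Hsp70 of growing cells, had 1221 and 1297 RPKM in psh1 cac2, 1064 and 1219 in psh1, 1115 and 1192 in cac2, and 1112 and 1278 in WT. The psh1 cac2 libraries lay just above those of psh1, and its change of 0.14 (95% interval -0.084 to 0.37) did not pass (limma adjusted p = 0.318). SSA1 shares 57.9% of its 50-base windows with another place in the genome, mainly its 96.4% identical copy SSA2, so its reads may have been split or dropped; SSA4 shares none. The reading frame YAL004W, opposite SSA1, had 2 to 30 reads, against 65695 to 84517 for SSA1.

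The ratio of SSA4 to SSA1 in RPKM was 0.194 and 0.19 in psh1 cac2, 0.146 and 0.138 in psh1, 0.175 and 0.198 in cac2, and 0.176 and 0.171 in WT. The psh1 ratios were the lowest of the 8 libraries. With 2 libraries against 2, an exact two-sided permutation test cannot give a p below 0.333, which was its value for psh1 cac2 against psh1.

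Both cytosolic J proteins that are needed for normal growth followed. YDJ1 (YNL064C, chromosome XIV, 505868 to 507097, - strand, 1 exon), whose product delivers unfolded proteins to Hsp70, had 451 and 434 RPKM in psh1 cac2, 354 and 357 in psh1, 362 and 401 in cac2, and 412 in both WT libraries. The psh1 cac2 libraries were the highest and the psh1 libraries the lowest, with no overlap between any 2 neighbours in that order. YDJ1 rose 1.25-fold in psh1 cac2 against psh1 (log2 change 0.32, SE 0.0726, limma adjusted p = 0.0201).

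SIS1 (YNL007C, chromosome XIV, 618507 to 619565, - strand, 1 exon) encodes an essential J protein that also takes part in the restraint of Hsf1 by Hsp70. It had 354 and 356 RPKM in psh1 cac2, 265 and 299 in psh1, 280 and 317 in cac2, and 296 and 312 in WT. The psh1 cac2 libraries stood above all others, and the remaining 3 genotypes overlapped. SIS1 rose 1.26-fold in psh1 cac2 against psh1 (log2 change 0.33, SE 0.0898, limma adjusted p = 0.0345).

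Both Hsp90 genes were higher in psh1 cac2 than in psh1. HSP82 (YPL240C, chromosome XVI, 96496 to 98625, - strand, 1 exon), the heat-inducible copy, had 471 and 522 RPKM in psh1 cac2, 335 and 381 in psh1, 385 and 459 in cac2, and 427 and 498 in WT. HSC82 (YMR186W, chromosome XIII, 632355 to 634472, + strand, 1 exon), the copy with high basal expression, had 1002 and 1007 RPKM in psh1 cac2, 826 and 820 in psh1, 778 and 903 in cac2, and 876 and 931 in WT. For HSC82 the psh1 cac2 libraries were the highest of all 8, and for HSP82 the psh1 libraries were the lowest.

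HSP82 rose 1.39-fold in psh1 cac2 against psh1 (log2 change 0.47, SE 0.121, limma adjusted p = 0.0298) and HSC82 rose 1.22-fold (log2 change 0.29, SE 0.0839, limma adjusted p = 0.0432). HSC82 had the largest adjusted p of the 7 calls. It missed the threshold with total reads (log2 change 0.15, limma adjusted p = 0.192) and with no filter on low values (limma adjusted p = 0.0506). Its call was also lost on leaving out any library of psh1 cac2, psh1 or WT. With quantile normalization the change of HSC82 was -0.27. The genes are 91.7% identical but share only 6.39% of the 50-base windows of HSP82. The ratio of HSP82 to HSC82 in RPKM was 0.469 and 0.518 in psh1 cac2, 0.405 and 0.465 in psh1, 0.495 and 0.509 in cac2, and 0.487 and 0.535 in WT, so HSC82 was the more abundant copy in all 8 libraries.

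HSP104 (YLL026W, chromosome XII, 88623 to 91349, + strand, 1 exon), the disaggregase needed to survive severe heat, showed no difference past the threshold. It had 321 and 398 RPKM in psh1 cac2, 303 and 364 in psh1, 355 and 385 in cac2, and 316 and 411 in WT. All genotypes overlapped. The change in psh1 cac2 against psh1 was 0.10 with a 95% interval from -0.25 to 0.46 (limma adjusted p = 0.653), and it was -0.028 with total reads. Both HSP104 and SSA1 carry a 3-unit heat shock motif as BTN2 and HSP42 do, so the 3-unit match was present on both sides of the test.

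**Figure D3:**
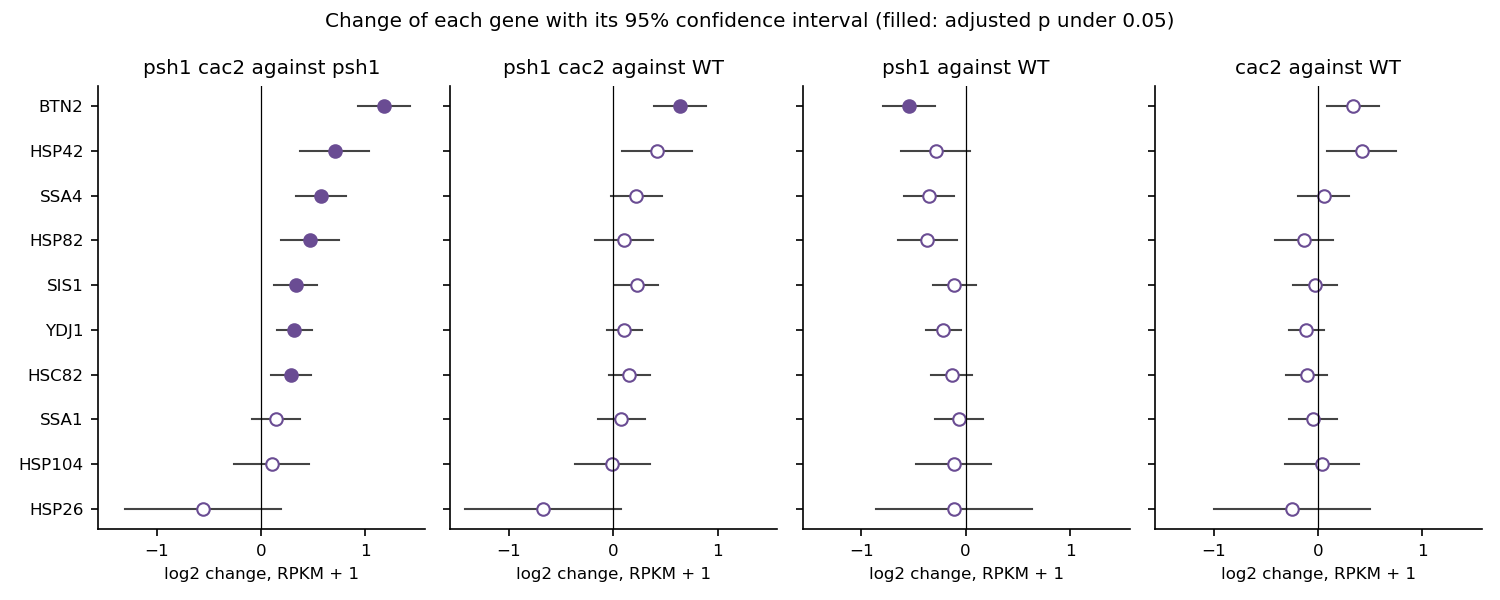
Log2 change of each gene on the log2(RPKM + 1) scale, with 95% confidence intervals from limma, in psh1 cac2 against psh1, psh1 cac2 against WT, psh1 against WT and cac2 against WT; filled points have an adjusted p under 0.05. There are 7 filled points for psh1 cac2 against psh1, BTN2 alone in the psh1 cac2 against WT and psh1 against WT panels, and none in the cac2 panel.

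Against WT at most 1 of the 10 genes passed per mutant. In psh1 cac2 against WT, BTN2 alone was higher (1.56-fold, log2 change 0.64, SE 0.107, limma adjusted p = 0.0132), where 6.05% of features passed and 3.86% were higher. HSP42 (0.42, limma adjusted p = 0.131) and SIS1 (0.22, limma adjusted p = 0.18) did not pass. The BTN2 call was lost without psh1 cac2 replicate 1 (limma adjusted p = 0.0677), psh1 cac2 replicate 2 (0.0857) or WT replicate 1 (0.0675).

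In psh1 against WT, BTN2 alone passed and was lower (log2 change -0.54, SE 0.107, limma adjusted p = 0.0184), where 14.5% of features passed and 6.9% were lower. All 10 changes were negative, with a median of -0.17 beside -0.0015 for all features, and for 5 of 10 genes both psh1 libraries lay below both WT libraries, as for 27.9% of features. SSA4 (-0.35, limma adjusted p = 0.0603), HSP82 (-0.37, 0.0795) and YDJ1 (-0.21, 0.0866) came closest without passing. The BTN2 call was lost on leaving out any 1 of the 4 libraries compared, with limma adjusted p between 0.0543 and 0.103, while SSA4 passed as well without cac2 replicate 1 (0.037) or 2 (0.0368). CSE4 RNA was also lower in psh1 (-0.66, limma adjusted p = 0.0071), and its part in the chaperone values was not tested.

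In cac2 against WT, 0 of 10 genes passed with limma, where 4.26% of features did. Voom on the recovered reads also called 0. With limma, 1434 of 6366 features had an unadjusted p under 0.05. So did 2 of the 10 genes: HSP42 (0.42, limma adjusted p = 0.151) and BTN2 (0.33, limma adjusted p = 0.129). For both, the 2 cac2 libraries lay above the 2 WT libraries, as for 25.5% of features.

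Set against cac2, psh1 cac2 had 0 of 10 genes that passed with limma or with voom, where 0.895% of features did. Of the 10, 4 had an unadjusted p under 0.05, as did 1515 of 6366 features: BTN2 (0.31), HSC82 (0.26), SIS1 (0.25) and YDJ1 (0.21). In psh1 against cac2, 3 genes were lower, where 35.2% of features passed and 16.9% were lower. They were BTN2 (-0.87, limma adjusted p = 0.000892), HSP42 (-0.70, limma adjusted p = 0.00762) and SSA4 (-0.41, limma adjusted p = 0.0192), the same genes that headed the list in psh1 cac2 against psh1, which shares the psh1 libraries. With total reads SSA4 no longer passed (-0.22, limma adjusted p = 0.131), nor without psh1 replicate 1 (0.109), psh1 replicate 2 (0.0517) or cac2 replicate 2 (0.098). Without psh1 replicate 1 HSP42 missed the threshold too (limma adjusted p = 0.0562).

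The interaction compares the change of psh1 cac2 with the psh1 and cac2 changes added up, all against WT. It called 1 feature of 6366 (0.0157%) and 0 of the 10 genes with limma or with voom. An unadjusted p under 0.05 was found for 866 of the 6366 features. Among them were 6 of the 10 genes, all above the sum: BTN2 (0.85, limma adjusted p = 0.13), HSP82 (0.60), SSA4 (0.52), YDJ1 (0.43), HSC82 (0.40) and SIS1 (0.36). Their adjusted p lay between 0.13 and 0.296, and BTN2 passed without cac2 replicate 2 (0.99, limma adjusted p = 0.0298).

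Libraries of 1 genotype also differed. For 7 of 10 genes replicate 2 lay above replicate 1 in all 4 genotypes, against 11% of features, and HSP104 did so by ratios of 1.08 to 1.30. Over the 8 libraries, which share their scaling and fall into 4 genotypes, the 15 pairs among BTN2, HSP82, HSC82, SSA4, YDJ1 and SIS1 had Pearson correlations of log2(RPKM + 1) between 0.706 and 0.96, given as a description. These 6 genes were grouped after their values were seen. HSP42 had lower values with HSC82 (0.499) and YDJ1 (0.548), but 0.915 with BTN2 and 0.88 with SSA4. HSP104 had 0.202 with YDJ1 and 0.783 with SSA1. The pairs of HSP26 ran from -0.451 with YDJ1 to 0.612 with HSP104. Among 4873 genes with a symbol and a mean RPKM of at least 10, those most like HSP104 by the same measure were YEF1 (0.969), FBP26 (0.962) and IAH1 (0.958), and those most like HSP26 were UIP4 (0.97), TKL2 (0.963) and GPA2 (0.951). SSA4 was most like LIP1 (0.98), ASK1 (0.979) and PEX10 (0.979), and HSP82 most like SOD2 (0.969), PBA1 (0.968) and AHP1 (0.961).

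The wider chaperone network was read from 9 lists of 94 genes that hold none of the 10. Genes named here for psh1 cac2 against psh1 were chosen after their values were seen. Of the 10 Hsp90 co-chaperone genes, 4 rose and 0 fell in psh1 cac2 against psh1, where 11.2% of features were higher and 12.2% lower. The median of these 10 genes was 0.089, beside -0.02 for all features. With total reads the same count rose, where 427 of 6366 features were higher, and the median was -0.04 beside -0.14 for all features. CPR6, a cyclophilin of Hsp90 complexes, had 300 and 309 RPKM in psh1 cac2 against 197 and 212 in psh1 (0.57, limma adjusted p = 0.00339). AHA1, which stimulates the Hsp90 ATPase, rose by 0.46, its relative HCH1 by 0.34, and STI1, which links Hsp70 to Hsp90, by 0.44. Without psh1 replicate 1 or psh1 cac2 replicate 2 the count was 2. Against WT, CPR6 rose in psh1 cac2 (0.36) and STI1 fell in psh1 (-0.32), and neither passed with total reads (limma adjusted p = 0.0741 and 0.0667).

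Of 9 tested genes of the cytosolic Hsp70 system, 2 rose and 2 fell in psh1 cac2 against psh1, near the shares over all features (11.2% higher and 12.2% lower). With total reads 1 rose and 4 fell, where 427 of 6366 features were higher and 2194 lower. FES1, an exchange factor of Hsp70, had 201 and 196 RPKM in psh1 cac2 against 131 and 133 in psh1 (0.58, limma adjusted p = 0.000895), and SSE1, another exchange factor, rose by 0.24 but did not pass with total reads (limma adjusted p = 0.232). The ribosome-bound Hsp70 genes SSB1 (-0.42) and SSB2 (-0.40) fell, and being close copies they are less certain as separate values. FES1 also rose in psh1 cac2 against WT (0.29, though limma adjusted p = 0.0723 with total reads) and fell in psh1 against WT (-0.29). Of the other 8 cytosolic J protein genes 0 rose and 2 fell, SWA2 (-0.20) and DJP1 (-0.18), where 12.2% of features were lower. With total reads 4 of the 8 fell, where 2194 of 6366 features were lower. Of 14 genes of the chaperonin TRiC and its partner prefoldin 0 passed with limma and 1 had an unadjusted p under 0.05. Against WT the J protein gene JJJ3 fell in psh1 (-0.46).

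Of 8 other heat shock and sorting genes, 4 rose and 0 fell in psh1 cac2 against psh1, where 11.2% of features were higher, with a median of 0.40. With total reads 3 rose and 2 fell, HSP12 (-0.32) and HSP150 (-0.30), and 0 rose without psh1 replicate 1 or without psh1 cac2 replicate 2. Over all 6366 features, total reads gave 427 higher and 2194 lower. HSP31, encoding a glyoxalase of the DJ-1 family, had 329 and 409 RPKM in psh1 cac2 against 183 and 203 in psh1 (0.92, limma adjusted p = 0.00851). Its close copies HSP32 (0.59) and HSP33 (0.45) rose with it, and their reads may be shared, so they are less certain as separate values; MBF1, a coactivator gene, rose by 0.43. Against WT, HSP31 (-1.03), HSP32 (-0.66) and HSP33 (-0.57) fell in psh1. No gene of this list passed in cac2 or psh1 cac2 against WT with limma.

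Of the 20 general stress genes under Msn2 and Msn4, 12 fell and 0 rose in psh1 cac2 against psh1, where 12.2% of features were lower, with a median of -0.48. Leaving out a library of psh1 cac2 or psh1 left 2 (psh1 cac2 replicate 1), 7 (psh1 cac2 replicate 2), 4 (psh1 replicate 1) or 3 (psh1 replicate 2). GPH1, glycogen phosphorylase, had 76.4 and 98.5 RPKM in psh1 cac2 against 182 and 208 in psh1 (-1.16, limma adjusted p = 0.00378). YGP1, also on the list, had a positive value that did not pass, with 871 and 910 RPKM in psh1 cac2 against 674 and 745 in psh1 (0.33, limma adjusted p = 0.0938). RTN2 (-0.91), the hexokinase gene HXK1 (-1.01) and HOR7 (-0.32) were among the 12. In psh1 against WT 4 of 20 rose and 0 fell, where 7.65% of features were higher, among them RTN2 (0.60), HOR7 (0.29) and GLK1 (0.53). Of the regulators, MSN4 fell in psh1 cac2 against psh1 (-0.35, limma adjusted p = 0.0198) and against WT (-0.38, limma adjusted p = 0.0323), MSN2 fell against psh1 (-0.19, limma adjusted p = 0.0461), and HSF1 did not pass against psh1 (0.058, limma adjusted p = 0.502). HSF1 was lower in psh1 than in cac2 (-0.23, limma adjusted p = 0.0174), but not with total reads (-0.051, limma adjusted p = 0.495). HSF1 stood at 41.5 ± 2.28 RPKM in psh1 cac2, 39.8 ± 0.367 in psh1, 46.9 ± 0.634 in cac2 and 44.1 ± 0.427 in WT (SD, n = 2).

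**Figure D4:**
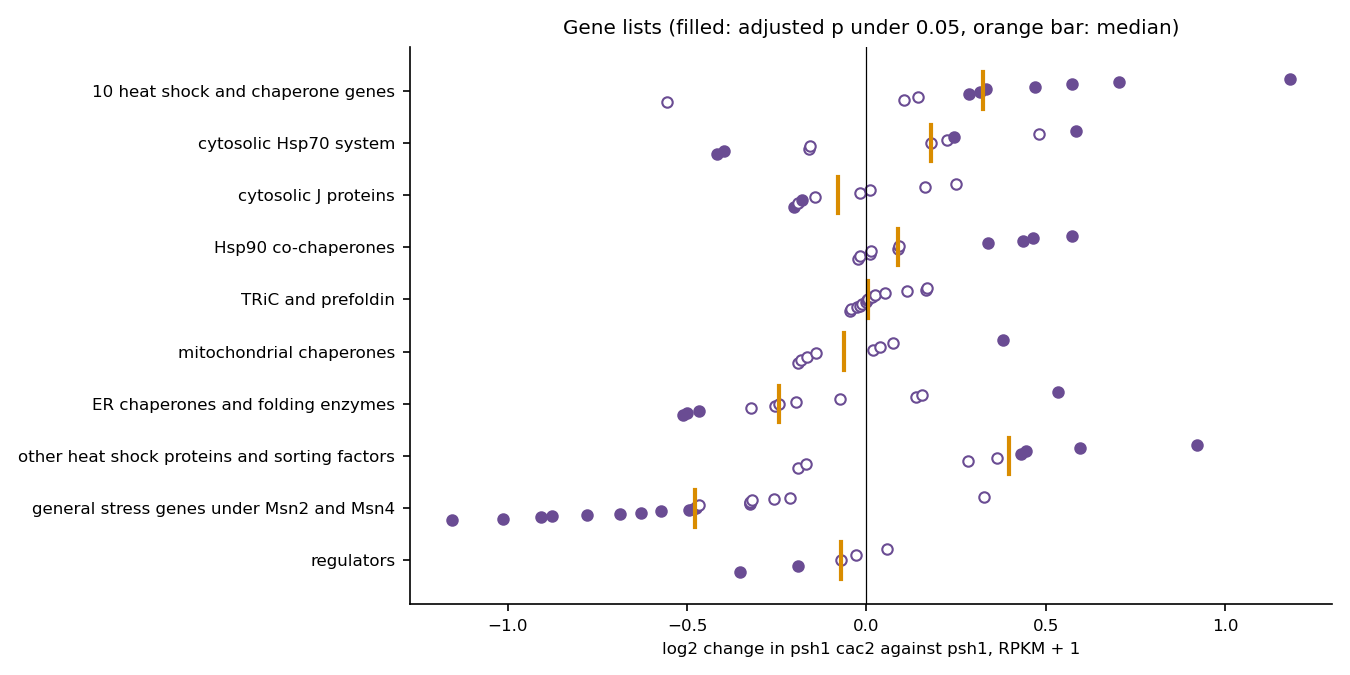
Log2 change in psh1 cac2 against psh1 on the log2(RPKM + 1) scale, 1 point per tested gene, for the 10 genes and 9 further lists; filled points have an adjusted p under 0.05 and orange bars are medians. The 10 genes have a median of 0.32, the other heat shock genes 0.40 and the general stress genes -0.48.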

How the data were processed

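RNA was rRNA-depleted total RNA in strand-specific libraries, per the labels' protocols. The authors deposited 1 table of RPKM for 7126 features in 8 libraries, on a linear scale. Tools named in the submitters' processing notes are TopHat2 2.0.13, bcl2fastq 2.18 and edgeR 3.14.0, with the build sacCer3 and no roles. How reads were counted, on which strand and with which annotation is not given in the sources used here. The features were matched to RefSeq R64 (6048 by locus tag), and coordinates count from 1. RPKM were whole multiples of 1 read in 99.8% of values (tolerance 0.01 reads). The library size the authors divided by was 0.932 to 1.07 times the recovered reads.

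Features with mean RPKM of 1 or more (6366) entered, as log2(RPKM + 1), a fit by limma 3.58.1 under R 4.3.3 (genotype as the only term, trend, all 8 libraries, 4 residual degrees of freedom, threshold 0.05, two-sided). The fit was tested on simulated data. Alternatives covered the pseudocount, the filter, total-read and quantile scaling, voom on recovered reads, the 2 compared genotypes alone, a replicate block and leaving out each library. Replicate libraries differed by more than sampling noise (chi-square per degree of freedom 26.4 to 44.8).

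The genes and lists were chosen with earlier results of these data known. Named were all 10 genes, up to 3 genes per list by p in each WT comparison, the genes most like 4 of the 10, and PSH1, CAC2, CSE4, HSF1, MSN2 and MSN4. Intervals cover the spread between libraries of a genotype as limma estimates it.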

Additional observations from a re-analysis of the deposited data

How the results depend on the processing

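All features: other settings gave other counts of called features. In psh1 against WT, 926 were called, 582 with the compared genotypes alone and 1625 with the replicate block. In cac2 against WT, 271 were called, 1352 with total reads and 821 with the block. In psh1 cac2 against WT, 385 were called, 657 with total reads, 231 with the compared genotypes alone and 984 with the block. In psh1 cac2 against psh1, 1493 were called and 2621 with total reads. Against cac2, psh1 cac2 had 57 called, 9 without a filter, 140 with total reads, 23 with the compared genotypes alone and 520 with the block. The interaction called 1, 2 at a mean RPKM of at least 10, 5 with quantile normalization, 6 with voom and 130 with the block. With total reads the higher and lower calls split as 427 and 2194 in psh1 cac2 against psh1 (716 and 777 as deposited), 179 and 478 in psh1 cac2 against WT (246 and 139), 163 and 1189 in cac2 against WT (175 and 96), 831 and 331 in psh1 against WT (487 and 439), 2726 and 492 in psh1 against cac2 (1159 and 1079), and 106 and 34 in psh1 cac2 against cac2 (25 and 32).

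The 10 genes: in psh1 cac2 against psh1 the 7 calls became 3 with total reads, where 41.2% of all features were called. In psh1 against cac2 the 3 calls became 7 with quantile normalization, in psh1 against WT the 1 call became 3 and in cac2 against WT the 0 calls became 2. Of all features, quantile normalization called 32.1% in psh1 against cac2, 12.3% in psh1 against WT and 4.67% in cac2 against WT. With the replicate block the calls were 5 in psh1 against WT (25.5% of all features) and 2 in cac2 against WT (12.9%). They were 2 in psh1 cac2 against WT (15.5%) and 2 in psh1 cac2 against cac2 (8.17%). In the interaction the block called 3 of the 10 (BTN2, HSP82 and SSA4) and 2.04% of all features. Same-numbered libraries of 2 genotypes correlated in their deviations by 0.038 to 0.443, and 2 of 6 pairs were at or under 0.1. All these values were positive. The labels do not say that replicate numbers mark a shared day or batch, and this was not tested. In psh1 cac2 against psh1, HSP104 was -0.028 with total reads, and with quantile normalization HSC82 was -0.27 and SSA1 -0.16.

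Leaving out 1 library gave 93 to 826 called features in psh1 against WT, 153 to 254 in cac2 against WT, 13 to 373 in psh1 cac2 against WT, 502 to 1489 in psh1 cac2 against psh1, 2 to 32 in psh1 cac2 against cac2, 1389 to 2276 in psh1 against cac2 and 1 to 41 in the interaction. Of the 10 genes it gave 1 to 7 in psh1 cac2 against psh1, 0 to 2 in psh1 against WT, 0 to 1 in psh1 cac2 against WT, 1 to 3 in psh1 against cac2 and 0 to 1 in the interaction, and HSP104 ran from -0.049 to 0.26 in psh1 cac2 against psh1. In that comparison 2 to 4 Hsp90 co-chaperone genes rose (4 with all libraries), 1 to 2 of the Hsp70 system (2), 0 to 4 other heat shock genes (4), and 2 to 13 general stress genes fell (12). Chosen after seeing the data, the list counts were 1 for the Hsp70 system with total reads and 1 with quantile normalization, and 6 for general stress with quantile normalization. A genotype left with 1 library is assumed to vary like the others, and the cause of each change was not tested.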

Other observations

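Chaperones of the endoplasmic reticulum and of mitochondria were counted in the same way. In psh1 cac2 against psh1, 3 of 11 genes of the endoplasmic reticulum fell, LHS1 (-0.47), MPD1 (-0.50) and SIL1 (-0.51), and ERO1, the oxidase of disulfide formation, rose (0.53), where 12.2% of features were lower and 11.2% higher. With total reads 7 of the 11 fell and 1 rose, where 2194 of 6366 features were lower and 427 higher. In psh1 against WT, MPD1 (0.43), SIL1 (0.47) and EUG1 (0.34) rose and ERO1 fell (-0.43), where 7.65% of features were higher and 6.9% lower. With total reads 6 rose and 0 fell, where 831 of 6366 features were higher and 331 lower. LHS1, an Hsp70-like chaperone, fell in cac2 (-0.33) and in psh1 cac2 (-0.28), each against WT. Of 8 mitochondrial chaperone genes, ECM10 alone passed in psh1 cac2 against psh1 and rose (0.38), where 23.5% of features passed. With total reads 1 of the 8 rose and 4 fell, where 427 of 6366 features were higher and 2194 lower. In psh1 against WT, MGE1 (0.29) and SSC1 (0.28) rose and ECM10 fell (-0.29). With total reads 2 of the 8 rose and 0 fell, where 831 of 6366 features were higher and 331 lower. The genes ERO1 in all comparisons, and all named here for psh1 cac2 against psh1, were chosen after their values were seen.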
